A study of Mus musculus with 12 samples.

Results

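The interferon-stimulated antiviral genes described here are 41 genes chosen by symbol, each known to be raised by interferon or to act in the interferon response. On the array, 62 probes carried the symbol of a member. A member was tested when at least 1 of its probes had a detection p under 0.05 on at least 2 of the 12 arrays, and 32 of the 41 members passed. Dtx3l, Ifi44 and Herc6 (3 members) had no probe named for them. Oas3, Ifit1, Mx1, Ifih1, Xaf1 and Epsti1 (6 members) were above background on 0 arrays. Of the 32 members tested, 18 were above background on all 12 arrays and 14 on fewer. A member that passed only through the group where it was bright had to differ between groups, so counts over the 32 are a description of those members and not of all 41.

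All groups were embryonic fibroblasts of the mouse strain C57BL/6, female and made immortal by SV40 large T antigen. Per the labels, YYFF is a mutation of β1 integrin that keeps cells from completing cytokinesis on a matrix that only β1 integrins bind, and the WT clone has wild-type β1 integrin. In both clones, L0 cells were never plated on laminin, while L4 and L8 cells were plated on it 4 or 8 times, each time overnight in serum-free hybridoma medium with normal medium added the next day, and then kept on plastic. The 6 groups (YYFF L0, YYFF L4, YYFF L8, WT L0, WT L4 and WT L8) had 2 arrays each. Each genotype was a single clone, so genotype and clone cannot be told apart, and nor can laminin passages and time in culture. The embryonic day on the labels differs from sample to sample. The series is titled for the effect of aneuploidy on gene expression, and no measure of ploidy was analysed here.

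Type I interferons bind a receptor on the cell surface whose kinases activate STAT2. STAT2 and IRF9 act in ISGF3, a complex that binds the interferon-stimulated response element (ISRE) in front of many antiviral genes. Their products sense viral RNA, degrade it, block translation or hold virus at the cell surface, and cultured fibroblasts both make and respond to interferon.

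The proximal promoters of some of the members that the results turn on are shown because a shared response element can be read in them. They come from RefSeq (GRCm38.p6), as 100 bases in front of or close to the transcription start, 5′ to 3′ on the strand of the gene. Capitals mark matches to GAAANNGAAA, an ISRE-like pattern, on either strand, and overlapping matches run together. Isg15 lies at chr4:156200819-156200918 (minus strand), Ifit3 at chr19:34583367-34583466 (plus) and its neighbour Ifit2 at chr19:34550594-34550693 (plus). Rsad2 lies at chr12:26456513-26456612 (minus), Bst2 at chr8:71537537-71537636 (minus), Oas1a at chr5:120907526-120907625 (minus) and Oas1g at chr5:120887614-120887713 (minus).
Isg15: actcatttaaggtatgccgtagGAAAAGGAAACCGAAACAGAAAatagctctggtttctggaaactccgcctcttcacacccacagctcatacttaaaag
Ifit3: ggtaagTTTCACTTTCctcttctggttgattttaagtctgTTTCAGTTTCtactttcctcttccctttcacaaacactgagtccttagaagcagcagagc
Ifit2: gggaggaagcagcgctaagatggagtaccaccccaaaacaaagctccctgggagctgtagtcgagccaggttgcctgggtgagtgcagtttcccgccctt
Rsad2: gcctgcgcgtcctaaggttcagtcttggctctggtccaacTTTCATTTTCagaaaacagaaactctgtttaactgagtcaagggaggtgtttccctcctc
Bst2: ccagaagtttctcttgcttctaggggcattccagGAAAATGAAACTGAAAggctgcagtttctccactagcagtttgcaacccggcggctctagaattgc
Oas1a: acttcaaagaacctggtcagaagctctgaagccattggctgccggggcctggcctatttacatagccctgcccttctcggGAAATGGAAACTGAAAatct
Oas1g: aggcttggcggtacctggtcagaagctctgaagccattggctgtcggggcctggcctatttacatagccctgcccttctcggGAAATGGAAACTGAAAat

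Isg15 had 3 matches in its stretch, Ifit3, Bst2, Oas1a and Oas1g had 2 each, Rsad2 had 1 and Ifit2 had 0. Irf9, Oasl2, Samd9l and Lgals3bp also held 0 matches in their windows. Over windows of 300 bases (250 before to 50 after the start), 12 of the 30 members with a window held the pattern (40%), against 3.99% of 27025 genes. A match is a description of letters and not a shown binding site, and no match says only that these letters are not in the window.

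Most tested members were lower after 8 laminin passages in both clones, and in the YYFF clone they were already lower after 4. On the log2 scale of normalized array signal, the median of the 32 members was 8.80 and 8.69 on the YYFF L0 arrays, 7.03 and 6.63 in YYFF L4 and 7.15 and 6.96 in YYFF L8. It was 9.22 and 9.28 on the WT L0 arrays, 8.56 and 8.78 in WT L4 and 6.10 and 6.22 in WT L8. The WT L4 arrays thus lay nearer to WT L0 than to WT L8, while both YYFF L4 arrays lay near the YYFF L8 level. WT L0 held the highest mean for 24 of the 32 members, and WT L8 held the lowest for 20. The shares of all genes with these ranks are not given here, so the counts describe the members alone. Among the 20, Dhx58, Oas1a, Oas2, Trim25, Cmpk2 and Mx2 were above background in neither YYFF L8 nor WT L8. Which of these groups was lower cannot be read for them. These are bulk cultures, in which fewer cells with a transcript and less transcript per cell cannot be told apart.

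**Figure D1:**
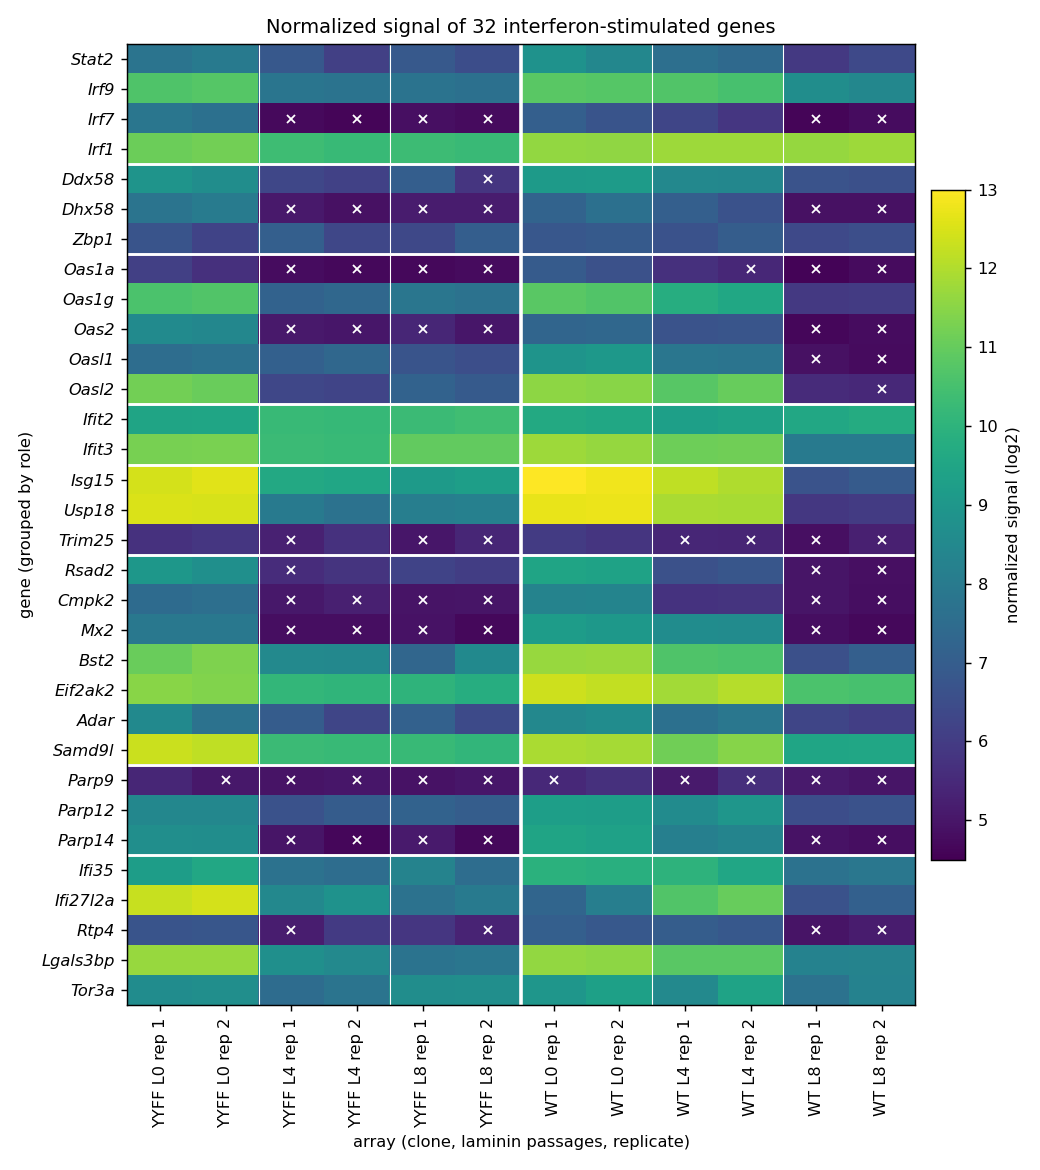
Normalized log2 signal of the 32 tested interferon-stimulated genes (rows, grouped by role) on each of the 12 arrays (columns, YYFF left of WT, passages from L0 to L8), with crosses where the detection p was 0.05 or more. Most rows darken from YYFF L0 to YYFF L4, and in WT most darken more from L4 to L8 than from L0 to L4. Irf1, Zbp1 and Ifit2 stay close to 1 shade in WT.

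In YYFF L4 against YYFF L0, 28 members fell and 1 rose (limma, adjusted p under 0.05 over 8891 genes), where 17.2% of all genes tested fell and 14.4% rose. The median change over the 32 members was -2.19 on the log2 scale, or -1.96 with the 7 members that were not above background in YYFF L4 set at their bound, against 0.02 over all genes. In YYFF L8 against the same L0 arrays, 27 fell and 1 rose, where 19.3% of all genes fell and 17.1% rose, and the median change was -2.23 (-1.95 with 8 members at their bound). In WT L4 against WT L0, 16 fell and 1 rose, where 8% of all genes fell and 7.5% rose, with a median change of -0.60. Of these falls, those of Oas2, Oasl2, Mx2 and Samd9l lost their call with median scaling and on removal of replicate 1 of WT L0 or of WT L4. Those of Oas2 and Mx2 also lost it without WT L4 replicate 2 and that of Oas2 without WT L0 replicate 2. The fall of Stat2 lost it without WT L0 replicate 1 or either WT L4 array, that of Irf7 without WT L0 replicate 1 or WT L4 replicate 2, and that of Ifit3 with median scaling. In WT L8 against WT L0, 28 fell and 0 rose, where 17.7% of all genes fell and 18.5% rose, with a median change of -2.51 (-2.38 with 12 members at their bound). The L4 and L8 comparisons of a clone share its L0 arrays.

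The filter on dim probes did not set the count for the 18 members above background on all 12 arrays. Of these, 16 fell in YYFF L4, 15 in YYFF L8, 7 in WT L4 and 14 in WT L8, each against its own L0. Over the 6447 genes above background on all arrays, the shares that fell were 16.3%, 18.5%, 7.91% and 19.7% in the same order.

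**Figure D2:**
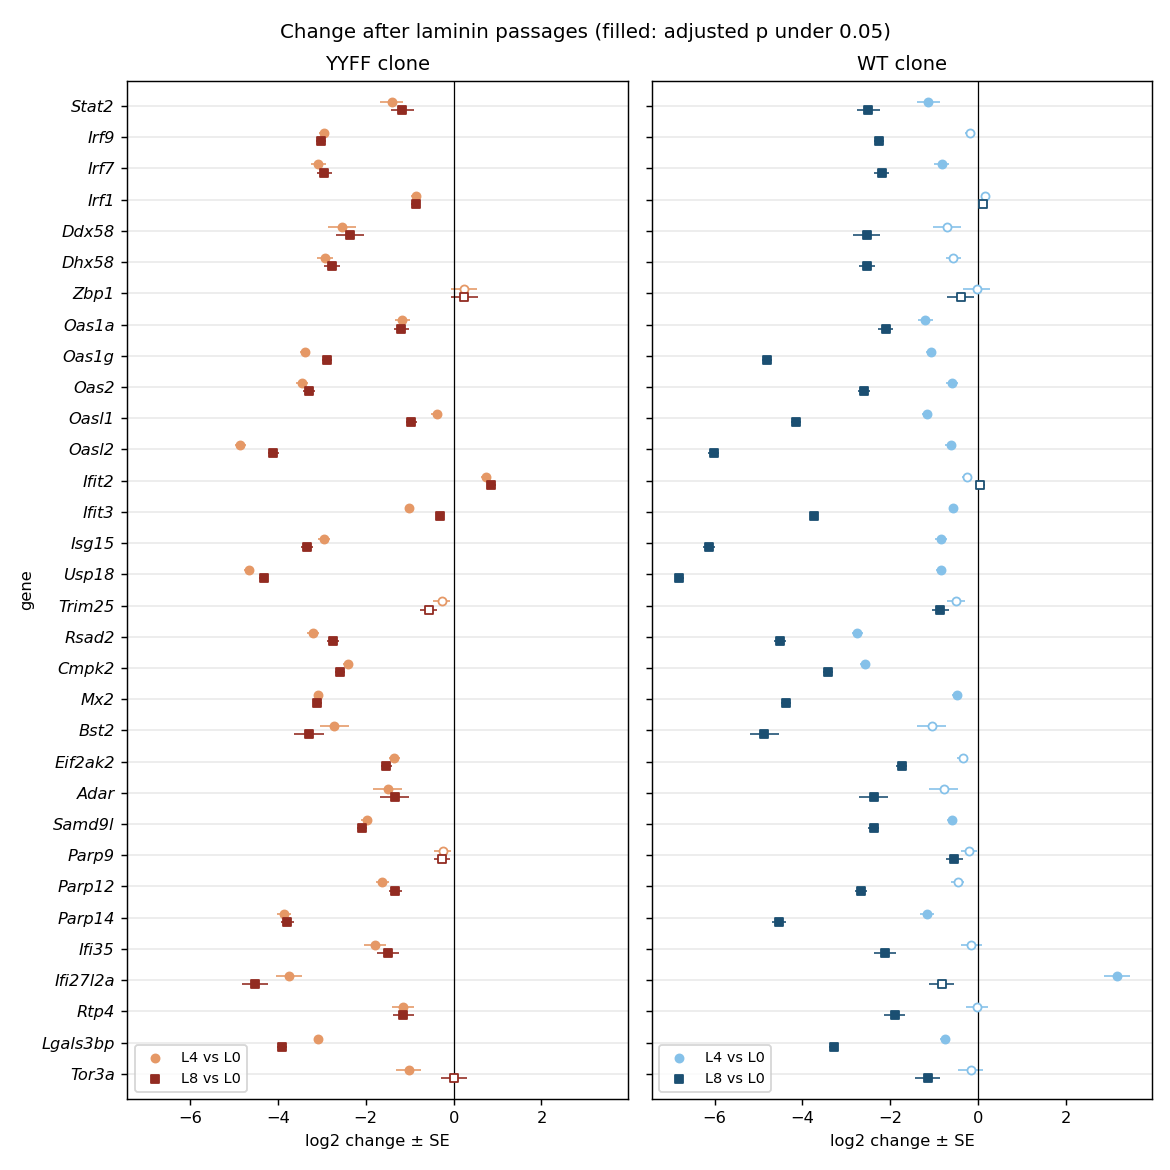
Log2 change ± SE of each tested member after 4 (circles) and 8 (squares) laminin passages against L0, in the YYFF clone (left) and the WT clone (right), with filled symbols at adjusted p under 0.05. The L4 and L8 symbols lie close together in YYFF, while in WT most L4 symbols lie near 0 and most L8 symbols lie between -1 and -7.

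Among signalling and transcription factors, Irf9, the DNA-binding subunit of ISGF3, fell in YYFF by L4 and in WT only at L8. Its log2 signals were 10.67 and 10.77 in YYFF L0, 7.81 and 7.72 in YYFF L4, and 7.75 and 7.65 in YYFF L8. In WT they were 10.81 and 10.76 at L0, 10.69 and 10.52 at L4, and 8.65 and 8.42 at L8. The WT L4 arrays overlap neither the L0 nor the L8 arrays but lie close to L0, and both YYFF laminin groups lie below every WT array. The change was -2.96 ± 0.11 in YYFF L4 (adjusted p = 2.02e-07), -0.18 ± 0.11 in WT L4 (adjusted p = 0.346) and -2.25 ± 0.11 in WT L8 (adjusted p = 1.78e-06). Stat2, its partner in ISGF3, fell in all 4 comparisons with L0, by 1.41 in YYFF L4, 1.17 in YYFF L8, 1.13 in WT L4 and 2.50 in WT L8.

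Irf1, a factor best known as a target of interferon gamma, passed the test in YYFF and not in WT. It had log2 signals of 11.10 and 11.20 in YYFF L0, 10.35 and 10.22 in YYFF L4, 10.32 and 10.26 in YYFF L8, 11.61 and 11.58 in WT L0, 11.75 and 11.75 in WT L4, and 11.65 and 11.76 in WT L8. It fell by 0.86 ± 0.10 in both YYFF L4 and YYFF L8, whereas its WT changes of 0.16 and 0.11 did not pass the test (adjusted p = 0.325 and 0.405). The difference between the clones' L8 changes was -0.98 ± 0.14 (adjusted p = 0.000684), a call lost with median scaling. Irf7, which drives the interferon alpha genes, was not above background on any array of YYFF L4, YYFF L8 or WT L8. It was at least 4.38-fold lower in YYFF L4 than in YYFF L0 (adjusted p = 1.81e-06) and at least 2.60-fold lower in WT L8 than in WT L0 (adjusted p = 2.28e-05).

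Of the 3 tested sensors of viral nucleic acid, Ddx58 and Dhx58 fell in both clones at L8 and in YYFF at L4. Ddx58 encodes RIG-I, which detects viral RNA ends in the cytoplasm. Its log2 signals were 8.89 and 8.67 in YYFF L0, 6.31 and 6.16 in YYFF L4, 7.04 and 5.80 in YYFF L8, 9.14 and 9.18 in WT L0, 8.46 and 8.45 in WT L4, and 6.66 and 6.58 in WT L8. The YYFF L8 replicates lie further apart than those of the other groups, and their range takes in both YYFF L4 arrays. Dhx58, which encodes the RIG-I-like protein LGP2, was at least 4.90-fold lower in YYFF L4, 4.64-fold lower in YYFF L8 and 3.76-fold lower in WT L8, each against L0 of the same clone.

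Zbp1, a sensor of Z-form nucleic acid, passed the test in no comparison with L0. It had log2 signals of 6.71 and 6.20 in YYFF L0, 7.09 and 6.29 in YYFF L4, 6.36 and 7.04 in YYFF L8, 6.80 and 6.92 in WT L0, 6.65 and 7.01 in WT L4, and 6.37 and 6.55 in WT L8. Its changes against L0 lay between -0.40 and 0.24, with an SE of 0.30, so a change of that size was not detectable here.

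The oligoadenylate synthetase family makes or resembles the enzymes that make the messenger by which RNase L is activated to cut RNA, and all 5 tested members fell in both clones at L4 and at L8, though the L4 calls of Oas2 and Oasl2 in WT and of Oasl1 in YYFF were lost in some settings. Oasl2 had log2 signals of 11.20 and 11.05 in YYFF L0, 6.31 and 6.23 in YYFF L4, 7.16 and 6.89 in YYFF L8, 11.57 and 11.48 in WT L0, 10.78 and 11.02 in WT L4, and 5.54 and 5.47 in WT L8. At this probe the clones therefore stood far apart at L4, with YYFF low and WT high, and WT was the lower clone at L8. A dimmer Oasl2 probe was above background on 6 arrays. There YYFF differed from WT by -1.23 ± 0.24 at L4 and -0.08 ± 0.24 at L8. The lower WT value at L8 thus rests on the brighter probe. At the brighter probe the change was -4.86 ± 0.13 in YYFF L4, -4.10 ± 0.13 in YYFF L8, -0.62 ± 0.13 in WT L4 and -6.02 ± 0.13 in WT L8 (adjusted p = 3.82e-08, 5.61e-08, 0.0119 and 1.56e-08). The WT L4 call was lost with median scaling, with only the arrays compared and without WT L0 replicate 1 or WT L4 replicate 1.

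Oas1g showed the same order of groups, with log2 signals of 10.59 and 10.69 in YYFF L0, 7.18 and 7.33 in YYFF L4, 7.82 and 7.70 in YYFF L8, 10.81 and 10.69 in WT L0, 9.79 and 9.58 in WT L4, and 5.92 and 5.98 in WT L8. Its neighbour Oas1a was dim throughout and at least 2.39-fold lower in WT L8 than in WT L0 (adjusted p = 2.78e-05). The coding sequences of the Oas1 copies are closely related, so a probe may read more than 1 of them, and their values are uncertain in that respect.

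Oas2 had log2 signals of 8.56 and 8.44 in YYFF L0, 5.09 and 5.01 in YYFF L4, 5.41 and 5.0 in YYFF L8, 7.28 and 7.33 in WT L0, 6.67 and 6.75 in WT L4, and 4.66 and 4.77 in WT L8. Unlike most members it was higher in YYFF than in WT before laminin, by 1.19 ± 0.14 (adjusted p = 0.00025). It was above background on no array of YYFF L4, YYFF L8 or WT L8, and was at least 7.40-fold lower in YYFF L4 and at least 3.49-fold lower in WT L8 than at L0.

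Oasl1, which in mice holds back translation of IRF7, had log2 signals of 7.53 and 7.66 in YYFF L0, 7.10 and 7.32 in YYFF L4, 6.72 and 6.56 in YYFF L8, 8.89 and 9.04 in WT L0, 7.84 and 7.76 in WT L4, and 4.87 and 4.76 in WT L8. It fell less in YYFF than in WT, where it was above background on no L8 array. It was at least 11-fold lower in WT L8 than in WT L0, against a change of -0.96 ± 0.12 in YYFF L8, and the clones' L8 changes differed by 3.19 ± 0.17 (adjusted p = 2.26e-06). The small YYFF L4 change of -0.39 ± 0.12 (adjusted p = 0.0362) lost its call in 11 of 23 settings, with median scaling, the authors' processed values and the removal of YYFF L0 replicate 1, YYFF L0 replicate 2, YYFF L4 replicate 1, WT L8 replicate 1 or WT L8 replicate 2 among them. A dimmer Oasl1 probe, above background on 10 arrays, changed by -0.26 ± 0.31 in YYFF L4 and -0.52 ± 0.31 in YYFF L8. The dimmest, above background on 3 arrays, changed by 0.01 ± 0.40 in YYFF L4 and -0.18 ± 0.40 in YYFF L8.

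Ifit2 and Ifit3, adjacent genes on chromosome 19 whose products bind viral RNA, went different ways. Ifit3 had log2 signals of 11.24 and 11.30 in YYFF L0, 10.28 and 10.23 in YYFF L4, 10.95 and 10.97 in YYFF L8, 11.75 and 11.66 in WT L0, 11.14 and 11.15 in WT L4, and 7.98 and 7.95 in WT L8. YYFF L8 thus lay near YYFF L0, while both WT L8 arrays lay far below every other array. The change was -0.31 ± 0.09 in YYFF L8 (adjusted p = 0.0217, lost with median scaling, with only the arrays compared and without YYFF L0 replicate 1, YYFF L0 replicate 2 or YYFF L8 replicate 1) and -3.74 ± 0.09 in WT L8 (adjusted p = 1.87e-08). The 3 detected Ifit3 probes had WT L8 changes of -3.57 to -3.79. In YYFF L8 the dimmer probes changed by -0.57 ± 0.11 and -0.54 ± 0.13, and both falls passed when every detected probe was fitted. A near-identical copy of Ifit3 exists in the mouse, and the probes may read both.

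Ifit2 was the only tested member to rise in YYFF against L0. Its log2 signals were 9.45 and 9.51 in YYFF L0, 10.23 and 10.18 in YYFF L4, 10.29 and 10.39 in YYFF L8, 9.65 and 9.57 in WT L0, 9.30 and 9.40 in WT L4, and 9.60 and 9.72 in WT L8. All 4 YYFF arrays after laminin lie above all other arrays. The change was 0.73 ± 0.10 in YYFF L4 (adjusted p = 0.000473) and 0.86 ± 0.10 in YYFF L8 (adjusted p = 0.000144), against -0.26 ± 0.10 in WT L4 and 0.05 ± 0.10 in WT L8, neither of which passed (adjusted p = 0.111 and 0.723). A second Ifit2 probe changed by 0.65 in YYFF L4 and 1.02 in YYFF L8.

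In the ISG15 system, Isg15 and Usp18 fell in both clones at L4 and at L8. Isg15, a ubiquitin-like protein attached to other proteins during the response, had log2 signals of 12.44 and 12.61 in YYFF L0, 9.62 and 9.54 in YYFF L4, 9.12 and 9.26 in YYFF L8, 13.02 and 12.83 in WT L0, 12.19 and 11.98 in WT L4, and 6.67 and 6.93 in WT L8. The change was -2.94 ± 0.14 in YYFF L4, -3.34 ± 0.14 in YYFF L8, -0.84 ± 0.14 in WT L4 and -6.13 ± 0.14 in WT L8, and each passed the test (adjusted p of 0.00372 or less). The remaining Isg15 signal in YYFF L8 was 2.39 ± 0.14 above that in WT L8 on the log2 scale (adjusted p = 1.91e-06).

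Usp18, which removes ISG15 from proteins and damps signalling at the interferon receptor, had log2 signals of 12.52 and 12.48 in YYFF L0, 7.97 and 7.71 in YYFF L4, 8.13 and 8.21 in YYFF L8, 12.72 and 12.75 in WT L0, 11.91 and 11.87 in WT L4, and 5.89 and 5.98 in WT L8. Its fall of 6.80 ± 0.11 in WT L8 (adjusted p = 3.31e-09) was the largest log2 change of any tested member in a comparison with L0, and its other detected probes fell by 6.08 and 6.86 there. Trim25, a ubiquitin ligase that activates RIG-I, was dim. Its change was -0.57 ± 0.20 in YYFF L8 (adjusted p = 0.0509), and in WT L8 it was at least 1.32-fold lower (adjusted p = 0.00872). The WT L8 call of Trim25 was lost without WT L0 replicate 1 or WT L8 replicate 1.

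**Figure D3:**
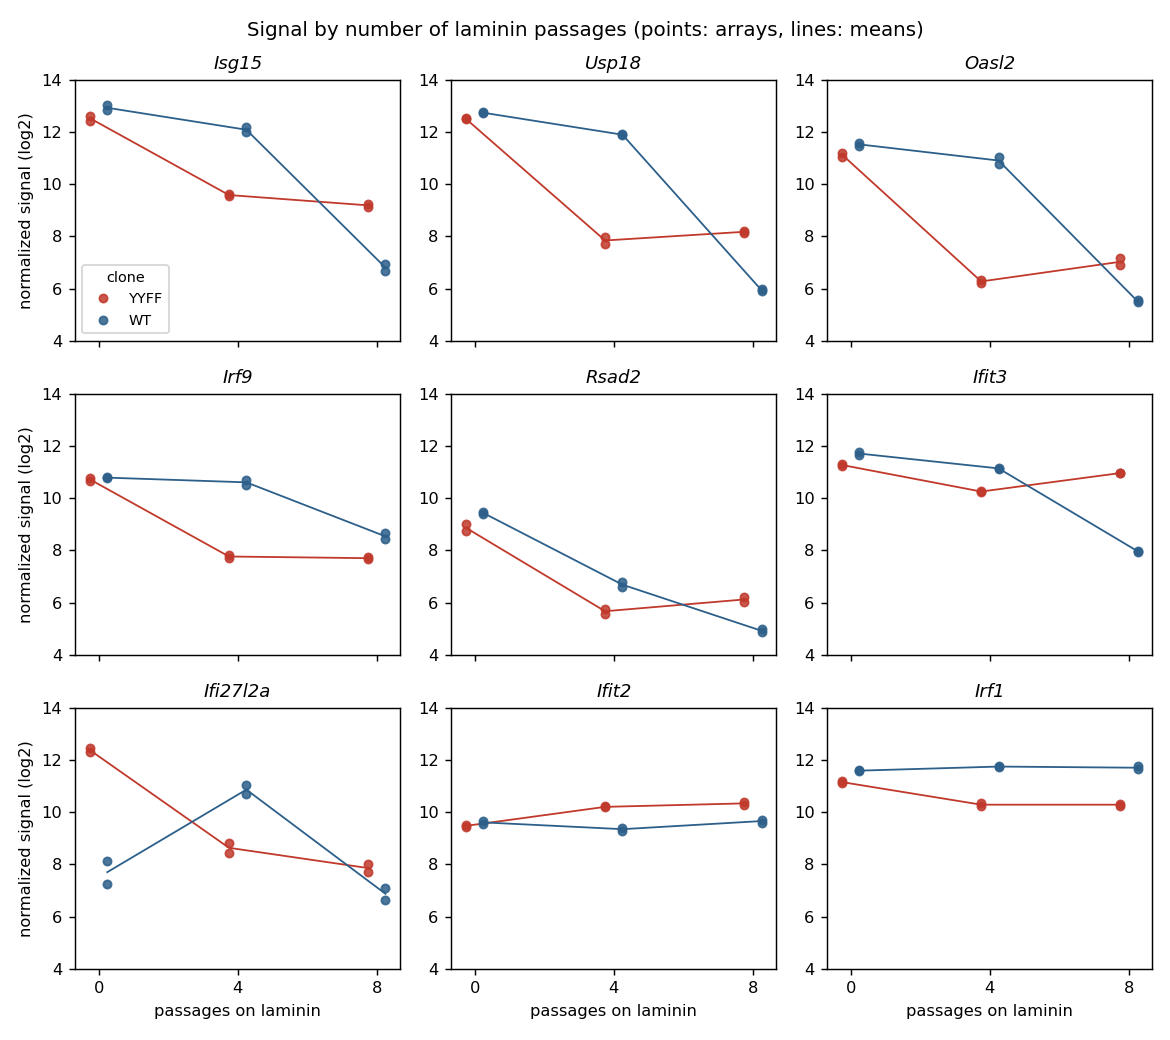
Normalized log2 signal of 9 members against the number of laminin passages (0, 4 and 8), with 1 point per array, YYFF in red and WT in blue, and lines through the group means. Isg15, Usp18, Oasl2 and Irf9 drop between L0 and L4 in YYFF and between L4 and L8 in WT, while Ifi27l2a crosses between clones and Ifit2 and Irf1 stay within about 1 unit in each clone.

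All 7 tested effectors fell in YYFF at L4 and L8 and in WT at L8, and 4 of them (Rsad2, Cmpk2, Mx2 and Samd9l) fell in WT at L4. The WT L4 calls of Mx2 and Samd9l were lost with median scaling, with only the arrays compared and without WT L0 replicate 1 or WT L4 replicate 1, and that of Mx2 also without WT L4 replicate 2. Samd9l, which restricts viral replication and translation, had log2 signals of 12.31 and 12.20 in YYFF L0, 10.31 and 10.24 in YYFF L4, 10.23 and 10.10 in YYFF L8, 11.93 and 11.86 in WT L0, 11.15 and 11.45 in WT L4, and 9.50 and 9.53 in WT L8. Eif2ak2 encodes PKR, the kinase that halts translation on sensing double-stranded RNA. It had log2 signals of 11.51 and 11.38 in YYFF L0, 10.13 and 10.05 in YYFF L4, 10.03 and 9.78 in YYFF L8, 12.37 and 12.21 in WT L0, 11.83 and 12.05 in WT L4, and 10.58 and 10.52 in WT L8. Both genes remained bright after laminin, with falls of 1.54 to 2.38 at L8 in the 2 clones.

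The other effectors fell as well. Mx2, a GTPase that blocks viral replication in the cell, was at least 4.89-fold lower in YYFF L4, at least 4.63-fold lower in YYFF L8 and at least 12.2-fold lower in WT L8 than in L0 of the same clone (limma adjusted p of 1.23e-07, 8.68e-08 and 2.28e-08). Bst2, or tetherin, which holds budding virus at the cell surface, fell by 3.29 ± 0.33 in YYFF L8 and by 4.87 ± 0.33 in WT L8. Adar, which edits double-stranded RNA, fell by 1.34 ± 0.33 in YYFF L8 and 2.38 ± 0.33 in WT L8, and its YYFF L8 call was lost without YYFF L0 replicate 1 or without YYFF L8 replicate 2.

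Rsad2 and Cmpk2 had already fallen in WT by L4. Rsad2 encodes viperin, which makes a chain-terminating nucleotide from CTP, Cmpk2 encodes a nucleotide kinase, and the genes are neighbours on chromosome 12. Rsad2 fell by 2.75 ± 0.13 (adjusted p = 2.93e-06) and Cmpk2 by 2.57 ± 0.11 (adjusted p = 1.81e-06) in WT L4, the 2 largest falls there among the members. In YYFF L4, Rsad2 changed by -3.20 ± 0.13, with 1 of the 2 arrays above background, and Cmpk2, above background on neither array, was at least 3.82-fold lower than in YYFF L0. The difference between the clones' L4 changes was -0.45 ± 0.19 for Rsad2 and did not pass (adjusted p = 0.12). For Cmpk2 the fitted difference was 0.17 ± 0.16 and did not pass either, and its size rests on a YYFF L4 signal near the floor.

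Of the ADP-ribosyl transferases, which modify proteins during infection, Parp12 and Parp14 fell in YYFF at L4 and L8 and in WT at L8. Parp14 also fell in WT L4, with a change of -1.16 ± 0.16 (limma adjusted p = 0.00143). Parp12 had log2 signals of 8.43 and 8.43 in YYFF L0, 6.65 and 6.96 in YYFF L4, 7.18 and 7.02 in YYFF L8, 9.26 and 9.23 in WT L0, 8.61 and 8.95 in WT L4, and 6.51 and 6.65 in WT L8. Parp14 had 8.70 and 8.66 in YYFF L0, 4.98 and 4.67 in YYFF L4, 5.11 and 4.69 in YYFF L8, 9.46 and 9.36 in WT L0, 8.19 and 8.32 in WT L4, and 4.93 and 4.82 in WT L8. Parp14 was above background on every L0 and WT L4 array and on no other, a fall of at least 8.40-fold in YYFF L4 and at least 15-fold in WT L8. Parp9, the partner of the ubiquitin ligase Dtx3l, was dim, and its change of -0.54 ± 0.18 in WT L8 (adjusted p = 0.0478) lost its call in 13 of 22 alternative settings, 8 of which left out 1 array (either array of YYFF L4, YYFF L8, WT L0 or WT L8).

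Ifi27l2a, a small interferon-induced membrane protein gene, had the least regular profile of the members. Its log2 signals were 12.30 and 12.46 in YYFF L0, 8.45 and 8.82 in YYFF L4, 7.71 and 8.01 in YYFF L8, 7.26 and 8.15 in WT L0, 10.71 and 11.03 in WT L4, and 6.64 and 7.11 in WT L8. YYFF L0 was the brightest group and WT L4 the next, with WT L0 low. It fell by 3.74 ± 0.29 in YYFF L4 and rose by 3.16 ± 0.29 in WT L4 (adjusted p = 1.52e-05 and 0.000152), so the clones' L4 changes differed by -6.91 ± 0.41 (adjusted p = 5.22e-06). The WT L8 change of -0.83 ± 0.29 did not pass (adjusted p = 0.0515).

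Lgals3bp, a secreted glycoprotein that binds galectins, belongs to the remaining group. Its log2 signals were 11.69 and 11.70 in YYFF L0, 8.74 and 8.49 in YYFF L4, 7.74 and 7.84 in YYFF L8, 11.61 and 11.54 in WT L0, 10.83 and 10.81 in WT L4, and 8.27 and 8.30 in WT L8. Ifi35 fell by 1.49 in YYFF L8 and 2.12 in WT L8. Rtp4 fell by 1.14 in YYFF L8 and was at least 2.72-fold lower in WT L8. Tor3a, a torsin ATPase, fell by 1.14 ± 0.29 in WT L8 and changed by 0.01 ± 0.29 in YYFF L8 at its brightest probe. Its dimmer probes changed by -0.65 and -1.02 in YYFF L8, so its YYFF value depends on the probe. The WT L8 call of Tor3a was lost without WT L0 replicate 2 or WT L8 replicate 1.

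Taking the 32 members one by one, 25 fell in both clones at L8 against L0. Irf1 and Ifi27l2a (2 members) passed in the YYFF clone only, Trim25, Parp9 and Tor3a (3 members) in the WT clone only, and Zbp1 and Ifit2 (2 members) fell in neither. The WT L8 calls of Trim25, Parp9 and Tor3a were each lost in some settings. Conversely, Ifi27l2a in WT L8 and Trim25 in YYFF L8 passed with median scaling, and Tor3a in YYFF L8 passed with the mean of its detected probes. At L4, 16 fell in both clones. The share of all genes that fell in both clones is not given here, so these joint counts describe the members alone. A call in 1 clone alone does not show that the clones differ, which the comparison of the changes tests directly.

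At L4 the change in YYFF was lower than that in WT for 21 members and higher for 2 (Oasl1 and Ifit2). Of all genes tested, 13.4% had a lower and 10.3% a higher YYFF change. At L8 the difference mostly had the other sign, with a higher YYFF change in 15 members and a lower one in 6. Of all genes tested, 14.4% had a higher and 17.5% a lower YYFF change. With median scaling the counts of members were 14 higher and 1 lower. The largest L8 differences in that direction were those of Ifit3 (3.43 ± 0.12), Oasl1 (3.19 ± 0.17), Isg15 (2.79 ± 0.19) and Usp18 (2.48 ± 0.15). Oasl1, like Rsad2, was above background on no WT L8 array, so the size of its difference rests on a signal near the floor. Another 6 of the 21 (Mx2, Oas1a, Cmpk2, Parp14, Irf7 and Oas2) were above background in neither YYFF L8 nor WT L8, and no L8 difference can be read from them. Leaving them out, the YYFF change was higher in 11 members and lower in 4.

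Between the clones at the same passage number, more members differed at L4 than at L0 or L8. In YYFF L0 against WT L0, 11 members were lower and 3 higher, where 12.2% of all genes were lower and 14.7% higher, and the median difference was -0.40. The lower members numbered 7 with median scaling and 7 without WT L0 replicate 1. The 3 higher ones were Ifi27l2a, by 4.68 ± 0.29, Oas2, by 1.19 ± 0.14, and Irf7, by 0.86 ± 0.17. In YYFF L4 against WT L4, 28 members were lower and Ifit2 was higher, where 19.7% of all genes were lower and 18.2% higher, with a median difference of -1.56. The largest of these differences were those of Oasl2 (-4.63 ± 0.13) and Usp18 (-4.05 ± 0.11).

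At L8 the order turned for many members. In YYFF L8 against WT L8, 13 members were higher and 4 lower, where 17.2% of all genes were higher and 19.8% lower, with a median difference of 0.51. Oas2, 1 of the 13, was above background in neither group. Ifit3 was higher by 3.00 ± 0.09, Isg15 by 2.39 ± 0.14, Usp18 by 2.24 ± 0.11 and Oas1g by 1.81 ± 0.11. Oasl1 was at least 2.19-fold and Rsad2 at least 1.53-fold higher, since neither was above background in WT L8. The 4 lower ones were Irf1 (-1.42 ± 0.10), Irf9 (-0.84 ± 0.11), Eif2ak2 (-0.65 ± 0.13) and Lgals3bp (-0.50 ± 0.11).

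**Figure D4:**
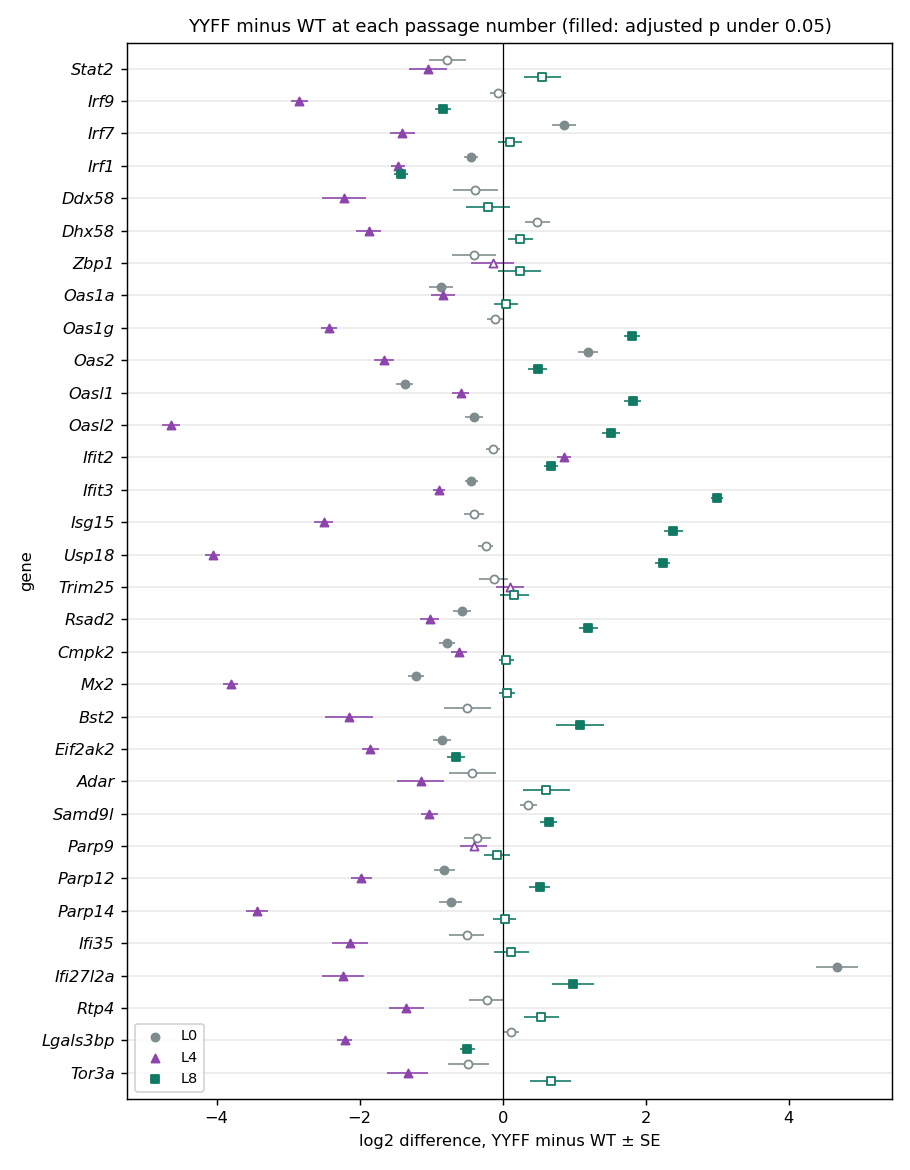
Log2 difference, YYFF minus WT, ± SE for each tested member at L0 (circles), L4 (triangles) and L8 (squares), with filled symbols at adjusted p under 0.05. At L4 nearly all symbols lie left of 0, and at L8 the symbols of Ifit3, Isg15, Usp18, Oas1g, Oasl1 and Oasl2 lie right of it.

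Between L4 and L8, the clones moved by different amounts. In WT L8 against WT L4, 27 members fell and 0 rose, where 8.86% of all genes fell and 10.8% rose, and the median change was -1.92 (-1.69 with 10 members at their bound). Usp18 fell by 5.96 ± 0.11, Oasl2 by 5.40 ± 0.13 and Isg15 by 5.28 ± 0.14. In YYFF L8 against YYFF L4, 2 rose and 1 fell, where 0.405% of all genes rose and 1.03% fell, and the median change was 0.05. Oasl2 (0.75 ± 0.13) and Ifit3 (0.71 ± 0.09) rose and Lgals3bp (-0.82 ± 0.11) fell, and 0 of these calls held under every alternative. The L4 to L8 change was higher in YYFF than in WT for 26 members and lower for 0, where 4.34% of all genes were higher and 6.29% lower. Of the 26, 6 were above background in neither YYFF L8 nor WT L8, which leaves 20.

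Other genes of the pathway, listed with knowledge of earlier results from these data, were counted in the same comparisons. The counts of receptors, factors and sensors below are small and near the shares of all genes called (19.3% lower and 17.1% higher in YYFF L8, 17.7% lower and 18.5% higher in WT L8), so they describe single genes and not the lists. Of 12 ligand genes, interferon genes and Il6, 10 had a probe, and Ifne, the one that was tested, passed in no comparison with L0. The probes of Ifnb1, Ifna1, Ifna2, Ifna4, Ifna5, Ifnab, Ifnk, Ifng and Il6 were above background on 0 arrays, which bounds their signal and does not show that no interferon was made. Of 8 tested receptor and kinase genes, 2 fell in YYFF L8 (Ifnar2 by 0.73 ± 0.19 and Ifngr1 by 0.72 ± 0.17) and 2 rose in WT L8 (Il10rb by 1.64 ± 0.26 and Tyk2 by 0.54 ± 0.14). Ifnar1 was not above background, and Jak1 and Jak2 passed in neither clone.

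Among 8 tested factors and feedback genes, 2 fell and 1 rose in YYFF L8, and 1 fell and 2 rose in WT L8. Irf3, which starts interferon synthesis, fell by 0.59 ± 0.10 in YYFF L8 and changed by -0.11 ± 0.10 in WT L8. Of 12 tested sensors and adaptors, 2 fell and 2 rose in YYFF L8, and 1 fell and 3 rose in WT L8. Ikbkg, the scaffold of the IκB kinase complex, rose in YYFF L8 (0.71 ± 0.10) and in WT L8 (0.37 ± 0.10). Tlr4, the receptor for bacterial lipopolysaccharide, rose by 0.47 ± 0.16 in YYFF L8 and by 0.81 ± 0.16 in WT L8.

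Most tested genes of a further list of interferon-induced genes, not among the 41 members, also fell, except in WT L4. Of 42 listed, 25 were tested. Among these, 18 fell and 1 rose in YYFF L4, and 19 fell and 0 rose in YYFF L8. In WT L4, 7 fell and 0 rose, and in WT L8, 16 fell and 1 rose. The shares of all genes that fell were 17.2%, 19.3%, 8% and 17.7% in the same order. Those that rose were 14.4%, 17.1%, 7.5% and 18.5%. A listed gene that passed the detection filter only through the group where it was bright had to differ between groups. Counts limited to genes above background on every array are not given for this list. The counts therefore describe the 25 tested genes and not all 42. Igtp, an interferon-inducible GTPase, had changes of -4.41 ± 0.15 in YYFF L8 and -4.61 ± 0.15 in WT L8. Gbp3, a guanylate-binding protein gene, had changes of -3.14 ± 0.15 in YYFF L8 and -4.78 ± 0.15 in WT L8. Those of Phf11d were -2.90 ± 0.18 in YYFF L8 and -4.41 ± 0.18 in WT L8. Ifitm3, which blocks fusion of virus with endosomes, fell by 1.92 ± 0.10 in YYFF L8 and 1.23 ± 0.10 in WT L8. Plscr1, a scramblase gene, rose by 1.17 ± 0.14 in WT L8. Trim30a, above background on the 2 YYFF L0 arrays and on no other, averaged 9.02 there on the log2 scale and 4.93 in YYFF L8.

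Over the arrays as a whole, 40.4% to 45.8% of probes were above background and the total signal was 13197182 to 17683779. Replicates correlated across genes with r of 0.987 to 0.994, and the median SD between replicates was 0.08 to 0.14 for the members and 0.09 to 0.14 for all genes. In each group, 6 to 8 of 10 fibroblast markers were above background on both arrays, with Vim and Col1a1 on all 12. Their summed linear signal was 20550 to 24900 on the YYFF arrays and 10490 to 15050 on the WT arrays, and its part in the results was not tested. The tested neural and glial marker, Stmn2, fell by 1.93 in YYFF L4 and 2.22 in YYFF L8 and rose by 2.61 in WT L4 and 2.39 in WT L8, and the tested endothelial marker, Tek, above background on 4 of 12 arrays, was lower in YYFF L8 than in YYFF L0 (adjusted p = 0.0141). The linear signal of Stmn2 was 139.9 to 719.8 on the YYFF arrays and 184.3 to 1295 on the WT arrays. The part of Stmn2 and Tek in the results was not tested. Of 8 leukocyte markers with a probe, 7, with Ptprc, Adgre1 and Itgam among them, were above background on 0 arrays. The remaining one, Cd14, rose by 1.96 ± 0.15 in YYFF L8 and 0.67 ± 0.15 in WT L8 while the members fell.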

How the data were processed

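Total RNA of 12 samples was measured on Illumina bead arrays after amplification and biotin labelling of 100 ng, per the labels' protocols. The deposited non-normalized table holds 25697 probes and, per the file headers, pairs a mean bead intensity with a detection p-value on each array. The intensities deposited by the authors had no background subtraction or scaling between arrays (medians 66.6 to 87.0), and the smallest step between detection p-values is 1 in 798. In the authors' processed table of intensities, 11 of 12 columns share 1 distribution and that of WT L0 replicate 2 holds the non-normalized signal, so that table was used only as an alternative. The submitters' processing notes name limma without version or role.

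Intensities went through normexp (offset 16, with the negative controls inferred from detection p-values), quantile normalization and log2 (limma 3.58.1, R 4.3.3). Probes with a detection p under 0.05 on at least 2 of 12 arrays were kept, and the brightest probe of each gene was tested, 8891 genes in all. Symbols came from the platform annotation, updated through RefSeq (GRCm38.p6), where 23962 of 23978 named probes matched by Entrez ID. A model with 1 coefficient per group, eBayes moderation and Benjamini-Hochberg adjustment across all 8891 genes (threshold 0.05) gave every contrast, with 6 residual and 2.91 prior degrees of freedom. A value after ± is the SE of a log2 change, with n = 2 arrays per group, unless called SD. Nothing in the labels says whether replicates are separate cultures, so the p-values rest on a spread that may be technical, and the number of arrays limits the precision. The fit was tested on simulated data.

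A member not above background in a group is given as "at least N-fold", the brighter mean against the higher, per array, of its own signal and the lowest signal above background. Values on every array are given for the 2 brightest members of each role group, the 6 largest differences between clones, members that rose and members that passed in no L8 comparison with L0. The members and lists were chosen with earlier results of these data known. Alternatives covered background correction, scaling, the authors' values, detection filters, probe choice, arrays in the fit, a replicate block and leaving out each array.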

Additional observations from a re-analysis of the deposited data

Results flagged for a closer look

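The tests of the difference between the clones' changes (YYFF change minus WT change, log2 scale, limma with Benjamini-Hochberg adjustment over 8891 genes) passed for 23 members at L4 against L0 and for 21 at L8 against L0. At L4 the YYFF change was lower than the WT change for Ifi27l2a (-6.91), Oasl2 (-4.24), Usp18 (-3.82), Oas2 (-2.85), Irf9 (-2.78), Parp14 (-2.70), Mx2 (-2.60), Dhx58 (-2.36), Lgals3bp (-2.33), Oas1g (-2.32), Irf7 (-2.26) and Isg15 (-2.10). It was also lower for Ddx58 (-1.84), Bst2 (-1.66), Ifi35 (-1.63), Samd9l (-1.39), Parp12 (-1.16), Rtp4 (-1.13), Irf1 (-1.02), Eif2ak2 (-1.0) and Ifit3 (-0.45). It was higher for Ifit2 (0.99) and Oasl1 (0.78). Irf7, Dhx58, Oas2, Mx2 and Parp14 (5 members) were above background on no YYFF L4 array, so the sizes of their differences rest on signals near the floor. A dimmer Oasl2 probe gave an L4 difference of -0.99 ± 0.34.

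At L8 the YYFF change was higher for Ifit3 (3.43), Oasl1 (3.19), Isg15 (2.79), Usp18 (2.48), Oas1g (1.92), Oasl2 (1.91), Rsad2 (1.77), Bst2 (1.58), Stat2 (1.33), Parp12 (1.33) and Ifit2 (0.81). Oasl1 and Rsad2 were above background on no WT L8 array. The dimmer Oasl2 probe gave an L8 difference of 0.16 ± 0.34. The YYFF change was lower for Ifi27l2a (-3.69), Irf1 (-0.98), Irf9 (-0.77) and Lgals3bp (-0.62). The calls of Ifit2, Irf1, Irf9 and Lgals3bp were lost with median scaling. Those of Stat2 and Bst2 were lost on removal of some single arrays, and that of Bst2 also with only the arrays compared. The other 6 calls were those of Mx2 (1.27), Oas1a (0.91), Cmpk2 (0.83), Parp14 (0.76), Irf7 (-0.75) and Oas2 (-0.70), which were above background in neither YYFF L8 nor WT L8. Their fitted values mostly restate the difference at L0, which was -1.21 for Mx2, -0.86 for Oas1a, -0.78 for Cmpk2, -0.73 for Parp14, 0.86 for Irf7 and 1.19 for Oas2 (YYFF minus WT). Of these calls, 16 of 23 at L4 and 11 of 21 at L8 held in all 23 alternative settings.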

How the results depend on the processing

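No log2 change of a member that passed the test changed sign under any of the 23 alternative settings, of which the authors' table with WT L0 replicate 2 normalized too was added after seeing the data. The counts of members called stayed within 1.5 times the reported count in every comparison except YYFF L8 against YYFF L4. There the count was 3, and it was 0 with median scaling and 0 with only the arrays compared (9 at an unadjusted p under 0.05). Leaving out 1 array gave 0 (without YYFF L4 replicate 1) to 5 (without YYFF L8 replicate 2), and 1 without YYFF L4 replicate 2; the cause was not tested. Of the calls, 25 of 29 in YYFF L4, 24 of 28 in YYFF L8, 9 of 17 in WT L4 and 24 of 28 in WT L8 against L0 held in all 23 settings, as did 8 of 14 between the clones at L0, 25 of 29 at L4 and 11 of 17 at L8. Oas1a, Trim25 and Parp9 could not be fitted with the stricter detection filter, and each of these comparisons but the last has 1 further call, of Oas1a, that held in the 22 settings it was fitted in. In WT L4 against WT L0, median scaling left 13 calls. For the difference between the clones' L8 changes it left 14 higher and 1 lower, against 15 and 6. The replicate numbers in the titles and in the descriptions differ in 3 of 6 groups. With a replicate block from the titles' numbers, the counts against L0 were 29 in YYFF L4, 29 in YYFF L8, 18 in WT L4 and 29 in WT L8, and with a block from the descriptions' numbers they were 29, 28, 17 and 27. Deviations of samples with the same title number correlated with r of 0.02 to 0.35 over 15 pairs of groups, above 0.1 in 13 of them. As r was not above 0.1 in all 15, the labels name no shared batch and the 2 sets of numbers differ, the samples were analysed as unpaired, and a shared source is not excluded. A slide block was not run, since the file headers name no slides. Array signal over background limits 12 members to bounds in at least 1 group, and with 2 arrays per group small changes were not detectable.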
